A study of Mus musculus with 12 samples.

Results

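Spironolactone given without aldosterone was compared with vehicle in mouse skeletal muscle fibroblasts, to ask what the antagonist itself did to the RNA of these cells. The comparison took the 4 spironolactone libraries and the 4 vehicle libraries, 8 of the 12 libraries sequenced, and the 4 libraries treated with aldosterone were only set beside them. Every gene whose normalized counts averaged 10 or more over the 8 libraries was tested, which held for 15226 of 27598 genes, while 12372 genes were below that level. A normalized count is the number of reads counted on a gene divided by a size factor of its library.

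All cells came from wild-type C57 BL/10 mice, from hindlimb muscle at postnatal day 3, and were enriched by adherence to the plate and used at passage 2. For 24 hours before treatment all plates were kept in medium whose serum had been stripped of steroids with charcoal. They then received 1 µM spironolactone or DMSO alone at 0.01% for 48 hours, and aldosterone was given at 1 µM for the same time. The labels give 2 mice, with cells pooled within a mouse, and 2 plates for each mouse and treatment. Library names carry first a sample number (1 or 2) and then a number of the biological replicate (1 or 2), and from the labels it cannot be told which digit stands for the mouse. The p-values therefore measure the spread between these plates.

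Spironolactone is a synthetic steroid that blocks the mineralocorticoid receptor, a ligand-activated transcription factor encoded by Nr3c2. When aldosterone or a glucocorticoid binds this receptor, or the closely related glucocorticoid receptor encoded by Nr3c1, the receptor enters the nucleus and raises genes such as Fkbp5, Tsc22d3, Per1 and Sgk1. Spironolactone also binds other steroid receptors, such as the progesterone receptor, and it is known to cause loss of the XPB protein, the TFIIH helicase encoded by Ercc3. In fibroblasts these receptors are studied for their part in matrix deposition, inflammation and growth. The study used spironolactone to check that the serum had been cleared of steroids.

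The 8 libraries held between 19136844 and 30174714 reads on genes, with no difference in depth detected between the groups (two-sided exact permutation test over 4 against 4 libraries, p = 0.657, and 0.556 within sample numbers). Mitochondrially encoded genes took 1.57% ± 0.0395 of the reads with vehicle and 1.51% ± 0.0908 with spironolactone (SD, n = 4, exact permutation p = 0.286, and 0.389 within sample numbers). The markers of fibroblasts were high, as Col1a1 had 574091 ± 21696 normalized counts with vehicle and 513231 ± 26038 with spironolactone (SD, n = 4), and the 11 fibroblast markers summed to between 1009110 and 1156860 in every library. Of the marker genes of other cells, Pax7 had 3 reads, Myf5 3, Ptprc 5 and Krt14 5 in all 8 libraries together. Other markers of the same lists were not near 0, such as Acta1 with 4608 reads and Des with 834 for muscle. Lyz2 had 1305 and Csf1r 438 for macrophages, and Tek had 3552 for endothelium. Summed markers of macrophages lay between 202 and 294 with vehicle and between 188 and 268 with spironolactone, those of muscle cells between 524 and 779 and between 536 and 860, and those of endothelium between 477 and 537 and between 464 and 516. The 5 mural cell markers were well above 0, at sums between 10056 and 13504 with vehicle and between 10014 and 13772 with spironolactone, most of it Cspg4 at 9200 ± 1262 and 8931 ± 1020 (SD, n = 4). Summed markers of Schwann cells lay between 242 and 325 and between 285 and 338, Sox10 being at most at 16.2 normalized counts in a library. Cartilage genes were not near 0 either: Col2a1, the collagen of cartilage, stood between 19921 and 22921 normalized counts in libraries of sample number 1 and between 44757 and 50456 in those of sample number 2. The share of these cells in any result was not tested.

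The sample number was a larger source of difference than the drug. Adjusted p was at most 0.05 for the sample number in 2408 genes (15.8% of those tested), 134 of them differing by over 1 log2 unit, against 42 genes (0.276%) for spironolactone. Deviations of libraries from their group means went together between vehicle and spironolactone libraries of the same sample number (mean Pearson r = 0.218 across genes, 8 pairs between 0.181 and 0.256). The mean r of -0.219 between those of different number largely follows from taking deviations from group means and is no separate result. By biological replicate number, the mean r was -0.0163 for the same number and 0.0163 for different numbers. The sample number was therefore a block in the test, which was limma on log2(normalized count + 1) with Benjamini-Hochberg adjustment over all 15226 genes.

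Few genes differed between spironolactone and vehicle, and none by much. With the block, 27 genes (0.177% of those tested) rose and 15 (0.0985%) fell at an adjusted p of at most 0.05. The genes that rose did so by between 0.18 (Fth1) and 0.80 (Rpl17) on the log2 scale, and those that fell had log2 differences between -0.19 (Ahr) and -0.91 (Gm10123). No gene (0%) also passed a difference of 1 log2 unit, the second threshold of the study. Without the block, limma called 0 genes (0%), the smallest adjusted p was 0.33, and 739 genes had an unadjusted p under 0.05, against 1515 with the block. On reads recovered from the same values with the block, edgeR's quasi-likelihood test called 33 higher and 19 lower and DESeq2 called 60 and 41, and DESeq2 without the block called 12 and 1. Leaving out spironolactone 1_1 gave 144 higher and 48 lower, and leaving out vehicle 1_2 gave 10 and 4. Of the 42 genes, 10 were called in all 8 fits that left out a library, among them Igfbp5, Cox7c, Rps29, Rpl21, Mt1, Rpl7a, Anxa8, Rpl17 and Rps28.

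**Figure D1:**
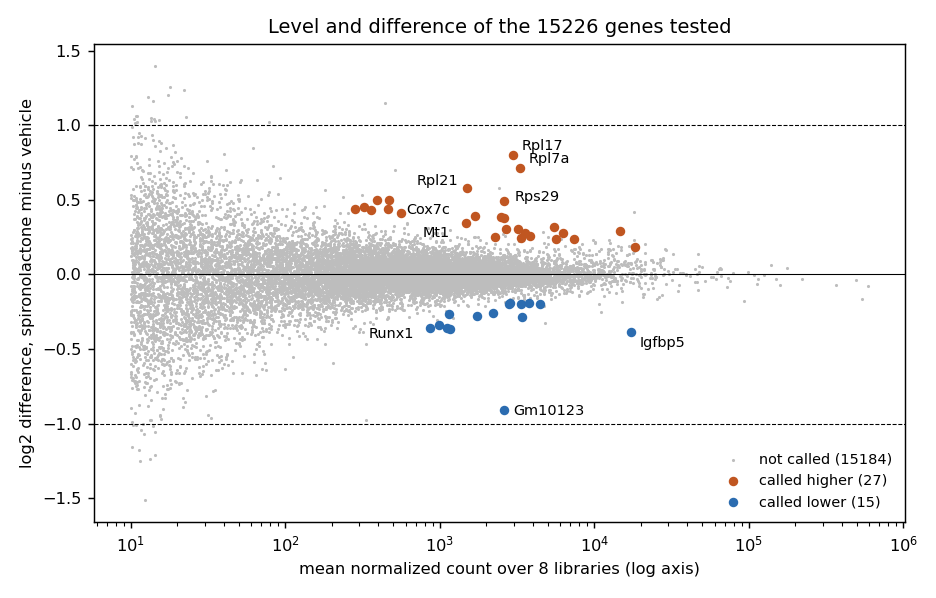
Each point is 1 of the 15226 genes tested, with its mean normalized count over 8 libraries on a log axis and its fitted log2 difference, spironolactone minus vehicle. The 27 genes called higher and the 15 called lower at an adjusted p of at most 0.05 (limma, blocked on sample number) are coloured, and all of them lie between the dashed lines at 1 log2 unit.

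The intervals show how large an effect these libraries left room for. The 95% interval of the difference lay within 1 log2 unit of no change in 14251 genes (93.6%), within 0.5 in 11595 (76.2%) and within 0.25 in 7918 (52.0%). This depended on the level of the gene. For the 4048 genes with a mean between 10 and 100, the median half-width of the interval was 0.55 and 76.2% were within 1 log2 unit. For the 6441 genes between 100 and 1000 the half-width was 0.167 and 99.9% were within that bound, and for the 4737 genes above 1000 it was 0.0963 and 99.9%.

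Every spironolactone library was above every vehicle library in 281 genes (1.85%) and below in 238 (1.56%). Within each sample number taken alone, both spironolactone plates were above both vehicle plates in 712 genes (4.68%) and below in 725 (4.76%). Of the 27 genes called higher, 20 had no overlap over all libraries and 27 had none within either sample number. Of the 15 called lower, 6 had no overlap over all libraries and 13 had none within either sample number.

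Receptors that spironolactone can bind come first. Nr3c1, the glucocorticoid receptor, was the most abundant of those named, at 2898 ± 125 normalized counts with vehicle and 2796 ± 83.6 with spironolactone (SD, n = 4), a log2 difference of -0.05 with a 95% interval from -0.13 to 0.03. Nr3c2, the mineralocorticoid receptor, was low, at 16.8, 22.6, 54.1 and 57.2 normalized counts in vehicle libraries 1_1, 1_2, 2_1 and 2_2 and at 22.04, 19.9, 39.2 and 29.98 in the spironolactone libraries in the same order. Its sample number 2 libraries were higher in both groups and the groups overlapped, and its log2 difference of -0.29 had an interval from -0.80 to 0.21. Pgr, the progesterone receptor, was below the level for testing, at 8.85 ± 4.23 with vehicle and 8.19 ± 3.95 with spironolactone (SD, n = 4). Of the 20 receptors, steroid-converting enzymes and receptor chaperones tested, 0 were called, against 0.177% called higher and 0.0985% lower over all genes. Their median log2 difference was 0.03 against 0.001 over all genes tested, and all 20 intervals lay within 1 log2 unit. The smallest p among them belonged to Hsd17b10, a steroid and fatty acid dehydrogenase (log2 0.15, adjusted p = 0.407 by limma), and to Stip1, a co-chaperone of HSP90 (log2 0.10, adjusted p = 0.458).

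None of the genes that steroid receptors are known to raise passed the test with spironolactone. Of 30 such genes listed, 26 were tested, and 0 were called higher and 0 lower, against 0.177% and 0.0985% over all genes. At those shares few lists of 26 genes would hold a call, so the 0 does not set this list apart. Their log2 differences ran from -0.21 (Scnn1a) to 0.41 (Klf15) with a median of 0.07, 18 above 0 and 8 below, and all 26 intervals lay within 1 log2 unit and 19 within 0.5. In 6 of the 26 both spironolactone plates were above both vehicle plates in each sample number (4.68% over all genes), and in 0 were they below (4.76%). The remaining 4, Hif3a, Zbtb16, Timp4 and Fmo2, had means between 3.3 and 7.2 normalized counts in either group. With vehicle 2_2 and spironolactone 1_2 both left out, the median was 0.01, with 13 genes above 0 and 13 below. This pair was chosen after the data were seen, for its extreme values in ribosomal protein genes. In the 26 genes, spironolactone 1_2 was the highest of the 8 libraries in 10 and vehicle 2_2 the lowest in 4. A smaller median can therefore follow from the choice. Without spironolactone 1_1, 1 gene was called higher, Cebpd.

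Fkbp5, Tsc22d3, Per1, Dusp1 and Errfi1, all of the list, had small positive differences in 4 of 5 cases. Fkbp5, a co-chaperone that lowers the receptor's affinity for its ligand, had 369, 340, 343 and 278 normalized counts in the vehicle libraries and 476, 428, 364 and 329 with spironolactone. The spironolactone plates were higher in sample number 1 and overlapped the vehicle plates in sample number 2 (log2 0.26, interval 0.08 to 0.44, adjusted p = 0.284 by limma). Tsc22d3, the glucocorticoid-induced leucine zipper, had 2004, 1931, 2012 and 1933 with vehicle and 2096, 2111, 2137 and 2091 with spironolactone. All 4 spironolactone libraries were above all 4 vehicle libraries, with a difference of 0.10 on the log2 scale (interval 0.01 to 0.18, adjusted p = 0.418). Per1, a clock gene with a receptor-bound enhancer, had 568, 572, 602 and 604 with vehicle and 613, 657, 706 and 705 with spironolactone, again with no overlap (log2 0.19, interval 0.07 to 0.31, adjusted p = 0.23). Dusp1, a phosphatase of MAP kinases, and Errfi1, an inhibitor of the EGF receptor, had log2 differences of 0.06 and -0.07.

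Among the transcription factors of the list, Klf15, a regulator of amino acid and lipid use in muscle, had the largest difference. It had 147, 211, 238 and 277 normalized counts with vehicle and 238, 242, 314 and 360 with spironolactone, so the groups overlapped at sample number 2 of vehicle and sample number 1 of spironolactone (log2 0.41, interval 0.19 to 0.64, adjusted p = 0.134). Cebpd, an early factor of adipogenesis, differed by 0.25, Fos by 0.25 and Klf9 by -0.07, each with overlapping groups. Of the genes of kinase signalling and ion transport, Sgk1, the kinase through which aldosterone raises sodium uptake, had 1618, 1686, 1366 and 1277 with vehicle and 1649, 1894, 1274 and 1363 with spironolactone (log2 0.05, interval -0.06 to 0.16). Scnn1a, a subunit of the epithelial sodium channel, was low at 31.0 ± 10.1 and 26.3 ± 7.53 (SD, n = 4), Atp1b1, a sodium pump subunit, differed by -0.08, and Ndrg2 by 0.26.

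The secreted products of the list varied little. Gsn, the actin-severing protein gelsolin, differed by 0.08 on the log2 scale, the matrix protein gene Postn by 0.08, Cilp by 0.09, Serpina3n by 0.07, Angptl4 by 0.08 and Lcn2 by -0.17. Of the enzymes, Dpep1, a membrane dipeptidase, was higher in all 4 spironolactone libraries at 86.1, 111, 107 and 96.9 normalized counts against 81.7, 83.6, 68.8 and 77.8 with vehicle (log2 0.36, interval 0.06 to 0.66, adjusted p = 0.402). Glul, Pdk4 and Sult1a1 differed by 0.05, -0.04 and -0.06. The cell cycle inhibitors Cdkn1c and Cdkn1a differed by -0.03 and 0.02.

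The same genes were set beside the aldosterone libraries. In the deposited table of aldosterone and vehicle, 23 of the same 26 genes were higher with aldosterone and 0 lower at an adjusted p of at most 0.05, with a median log2 difference of 1.90, where 15.9% of all 15245 genes tested were higher and 15.3% lower. Both comparisons share the vehicle libraries. For Fkbp5 the aldosterone libraries held between 5970.2 and 7026 normalized counts (log2 4.26 ± 0.0627 over vehicle, SE), for Tsc22d3 the difference was 2.69, for Per1 1.83, for Sgk1 1.98 and for Klf15 2.21. Aldosterone was also compared directly with spironolactone in a separate table, where limma with the block called 2134 of 15300 genes (13.9%) higher with aldosterone and 1973 (12.9%) lower. All 30 genes of the list passed the level for testing there, and 27 were higher with aldosterone and 0 lower (26 and 0 without the block). The list was chosen with earlier results of these data known. Some of its genes, such as Fkbp5, Gsn and Per1, are named by the study as raised by aldosterone in these libraries. High counts with aldosterone follow in part from that choice and are no separate test of the list.

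**Figure D2:**
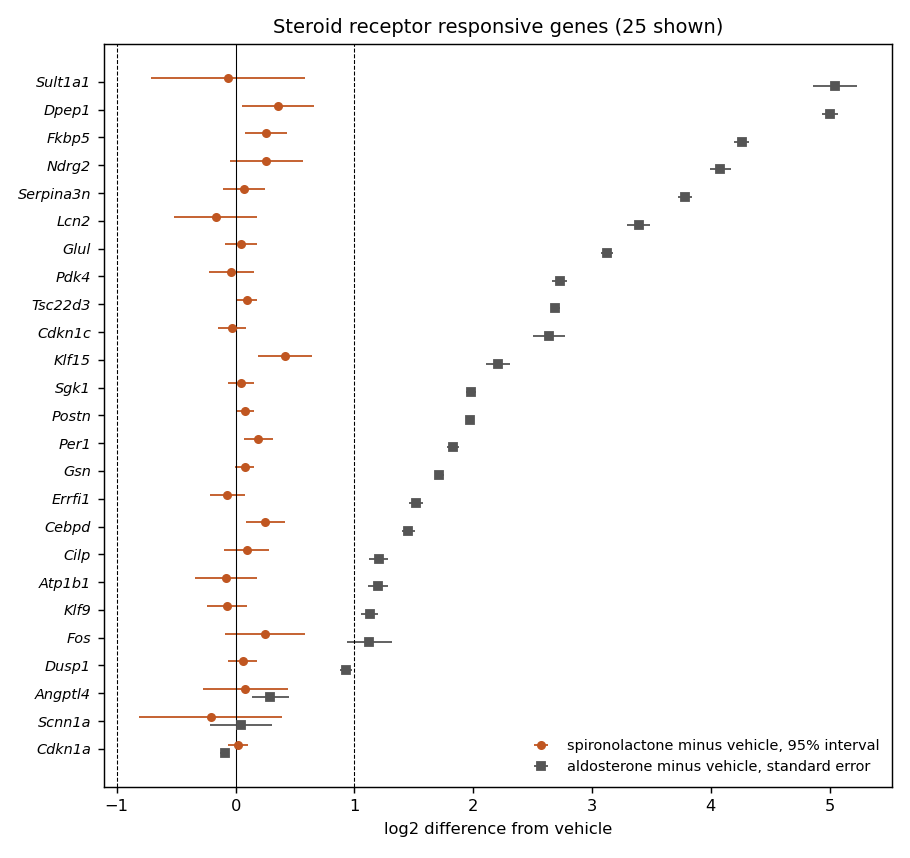
The log2 difference from vehicle of 25 of the 26 steroid receptor responsive genes tested, for spironolactone (circles, with 95% intervals) and aldosterone (squares, with standard errors), each in its own table and sharing the vehicle libraries. All 25 spironolactone intervals shown lie between the dashed lines at 1 log2 unit, while aldosterone reached 5.05 in Sult1a1.

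Ercc3, whose protein spironolactone is known to deplete, had 1163, 1264, 1139 and 1164 normalized counts with vehicle and 1169, 1156, 1129 and 1251 with spironolactone, which gave a log2 difference of -0.01 with an interval from -0.12 to 0.10. Of 22 genes of TFIIH and nucleotide excision repair, 0 were called, against 0.177% called higher and 0.0985% lower over all genes. Their median was 0.03. Gtf2h5 and Gtf2h3, subunits of the same complex, had the smallest p of the list, with log2 differences of 0.11 and -0.11 (adjusted p = 0.544 and 0.616 by limma). Protein was not measured in these data.

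Mt1, the metal-binding protein metallothionein 1, was the gene of the steroid and metal lists that rose. The files place it on chromosome 8 at 94905710 to 94906955 (mm39 by the submitters' processing notes). It stood at 1303, 1388, 1269 and 1226 normalized counts in vehicle libraries 1_1, 1_2, 2_1 and 2_2 and at 1580, 1756, 1648 and 1605 in the spironolactone libraries. The groups did not overlap, and the spread within each was smaller than the gap. The log2 difference was 0.35 ± 0.0484 (SE, interval 0.24 to 0.45, adjusted p = 0.00252 by limma with the block, 0.33 without it), which is 27.1% more RNA, and it was 0.31 in sample number 1 and 0.38 in sample number 2. With aldosterone Mt1 reached 5944 ± 269 normalized counts (SD, n = 4).

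Mt2, the neighbouring metallothionein gene, lies on chromosome 8 at 94899292 to 94900196 and was far lower. It had 32.0, 23.6, 19.7 and 29.2 normalized counts with vehicle and 18.9, 21.5, 25.4 and 31.0 with spironolactone. The groups overlapped fully, and the log2 difference was -0.11 with an interval from -0.65 to 0.44, wide enough to hold the difference seen for Mt1. Of the 17 zinc transporters and regulators tested with them, 0 were called, against 0.177% called higher and 0.0985% lower over all genes.

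The stretches around the starts of Mt1 and Mt2 are shown because 1 of the pair rose and the other was not called. Metallothionein genes are switched on through metal response elements, whose core is TGCACNC or TGCGCNC. The windows run from 100 bases before to 30 after the RefSeq start (GRCm38.p6, plus strand, chr8:94178989-94179118 for Mt1 and chr8:94172518-94172647 for Mt2), with matches on either strand in capitals.
Mt1: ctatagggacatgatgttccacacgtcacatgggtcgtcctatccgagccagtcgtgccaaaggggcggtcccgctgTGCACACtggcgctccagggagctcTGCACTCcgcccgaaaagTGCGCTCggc
Mt2: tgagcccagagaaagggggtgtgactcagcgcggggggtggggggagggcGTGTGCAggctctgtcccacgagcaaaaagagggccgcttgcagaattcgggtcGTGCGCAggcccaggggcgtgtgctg
Mt1 held 3 matches and Mt2 held 2, none overlapping. Counted from the start, those of Mt1 lay at -23 to -17, 3 to 9 and 21 to 27. Those of Mt2 lay at -50 to -44 and 5 to 11. Positions without a minus sign lie after the start. Of 32851 windows of this length in the table, 14.0% held at least 1 match and 0.584% held 3 or more. A match of letters does not show that a factor was bound.

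The gene with the smallest adjusted p was Igfbp5, a secreted protein that binds insulin-like growth factors, and it fell. It lies on chromosome 1 at 72897091 to 72914043 on the minus strand. Its vehicle libraries held 12784, 11645, 25712 and 27453 normalized counts, and its spironolactone libraries 9244, 8576, 20557 and 22047. Sample number 2 was higher than sample number 1 by 1.19 on the log2 scale, so the groups overlapped over all libraries, while within each sample number both spironolactone plates were below both vehicle plates. The log2 difference was -0.39 ± 0.0434 (SE, interval -0.48 to -0.30, adjusted p = 0.00048 by limma with the block), -0.45 in sample number 1 and -0.32 in sample number 2. Without the block its adjusted p was 0.982.

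Among the other genes that fell, Runx1, a transcription factor of blood and mesenchymal cells, had 1128, 1024, 856 and 875 normalized counts with vehicle and 788, 785, 754 and 692 with spironolactone, with no overlap (log2 -0.36, adjusted p = 0.00815). Il1r1, the receptor for interleukin 1, had 1278, 1199, 1268 and 1292 with vehicle and 967, 1017, 1060 and 1146 with spironolactone, also with no overlap (log2 -0.27, adjusted p = 0.0251). Ptn, the growth factor pleiotrophin, had 2547, 2204, 5247 and 5000 with vehicle and 1848, 1947, 4139 and 4481 with spironolactone, lower within each sample number only (log2 -0.29, adjusted p = 0.00815). Lum, which encodes lumican, a proteoglycan that binds collagen fibrils, had 881, 864, 1420 and 1222 with vehicle and 604, 704, 1051 and 1144 with spironolactone, again lower within each sample number (log2 -0.34, adjusted p = 0.0234). Egfl6, a secreted matrix protein, fell by 0.36 on the log2 scale, Mcc by 0.36, Zfp871 by 0.28 and Pik3r1, a regulatory subunit of phosphoinositide 3-kinase, by 0.26. The last of the group, named after their values were seen, were Kctd12, Cd47, Nucks1, Igdcc4 and Ahr, with log2 differences between -0.20 and -0.19. Ahr encodes the aryl hydrocarbon receptor. Its target Cyp1b1, named for the smallest p of the drug metabolism list, was below vehicle in all libraries without passing the test (log2 -0.11, adjusted p = 0.262 by limma). Cyp1a1 was below the level for testing, at 0.902 ± 1.20 normalized counts with vehicle and 1.78 ± 2.36 with spironolactone (SD, n = 4). The activity of the receptor was not tested.

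The calls in the opposite direction were mostly short genes. The 27 genes that rose comprised 20 protein-coding genes and 7 pseudogenes, with a median gene length of 1241 bases, against 4144 over all genes tested and 6276 for the 15 that fell. Under 1000 bases were 10 of the 27 and 1 of the 15, against 6.65% of all genes tested.

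Cox7c, a small subunit of complex IV of the respiratory chain (chromosome 13 at 86192935 to 86195023), had 1546, 1512, 1463 and 1306 normalized counts with vehicle and 1895, 2045, 1913 and 1796 with spironolactone. All 4 spironolactone libraries were above all vehicle libraries (log2 0.39 ± 0.0487, SE, adjusted p = 0.000884 by limma with the block). Anxa8, a calcium-dependent membrane-binding protein, had 4129, 4281, 2866 and 2697 with vehicle and 4766, 5128, 3344 and 3397 with spironolactone, higher within each sample number (log2 0.26, adjusted p = 0.00546).

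**Figure D3:**
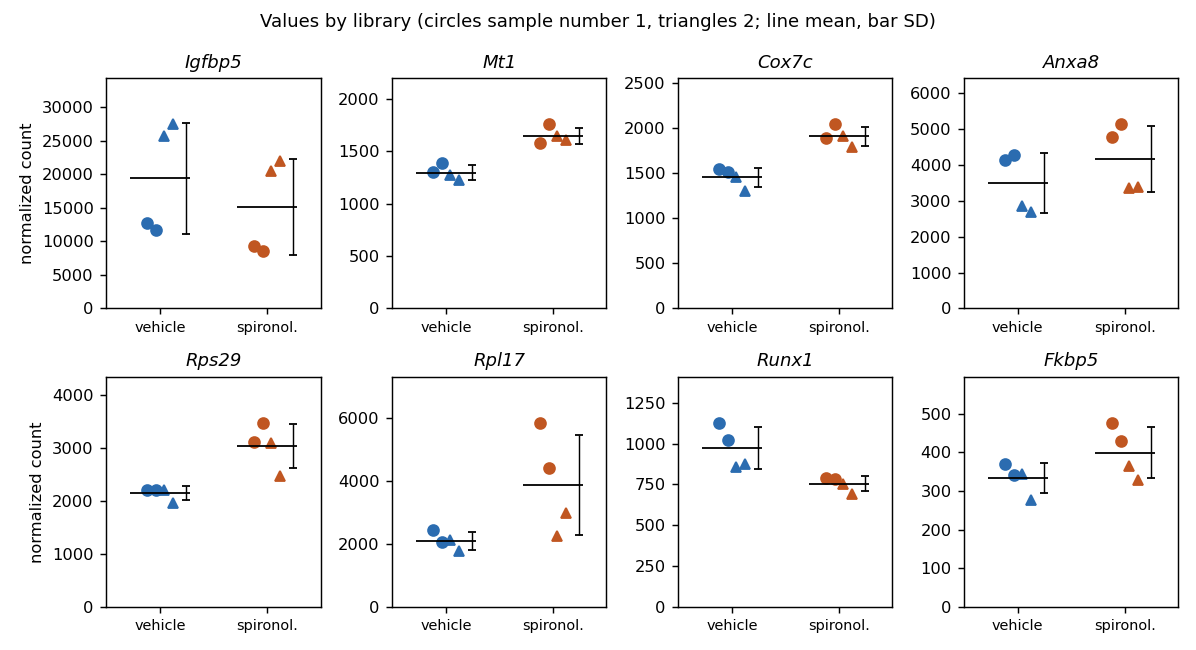
Normalized counts of 8 genes in each library, with the mean of the 4 libraries of a group as a line and the SD as a bar; circles are sample number 1 and triangles sample number 2. Mt1, Cox7c, Rps29 and Runx1 show no overlap between groups, Igfbp5 and Anxa8 separate only within a sample number, Rpl17 is widest with spironolactone in sample number 1, and Fkbp5 overlaps.

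Genes of the cytosolic ribosome gave the largest group among those that rose. Of 79 ribosomal protein genes tested, 10 were called higher and 0 lower, read against 0.177% and 0.0985% over all genes. Their median log2 difference was 0.16 against 0.001 over all genes, and 78 of 79 were above 0, Rps10 being the exception at -0.01. In 27 of the 79 both spironolactone plates were above both vehicle plates in each sample number, against 4.68% over all genes, and in 0 were they below. The 46 genes of the large subunit had a median of 0.17 with 8 calls, and the 33 of the small subunit 0.15 with 2. The share of all reads that fell on the 79 genes was 3.54%, 3.40%, 3.51% and 3.04% in the vehicle libraries and 3.62%, 4.14%, 3.72% and 3.59% with spironolactone. The groups did not overlap, and the exact permutation test gave a two-sided p of 0.0286 with libraries permuted across sample numbers. Permuted within sample numbers, as the block requires, p was 0.0556, which is the lowest that the 36 arrangements allow, so this design could not pass 0.05.

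A pair of libraries lay farthest apart in these genes. Spironolactone 1_2 was the highest of the 8 libraries in 72 of the 79 genes, and vehicle 2_2 was the lowest in 74. The median over the 79 genes, as a log2 difference from each gene's mean of 8 libraries, was 0.25 in spironolactone 1_2 and -0.26 in vehicle 2_2, and in the other 6 it lay between -0.06 and 0.06. With both left out, the median difference was 0.05, with 63 genes above 0 and 16 below, and 6 were called higher and 0 lower. The pair was chosen after the data were seen, for its extreme values in these genes, so that a smaller median follows from the choice. With either one of them left out 6 were called, with medians of 0.12 and 0.11, and without spironolactone 1_1 41 were called. Without the block 0 were called.

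**Figure D4:**
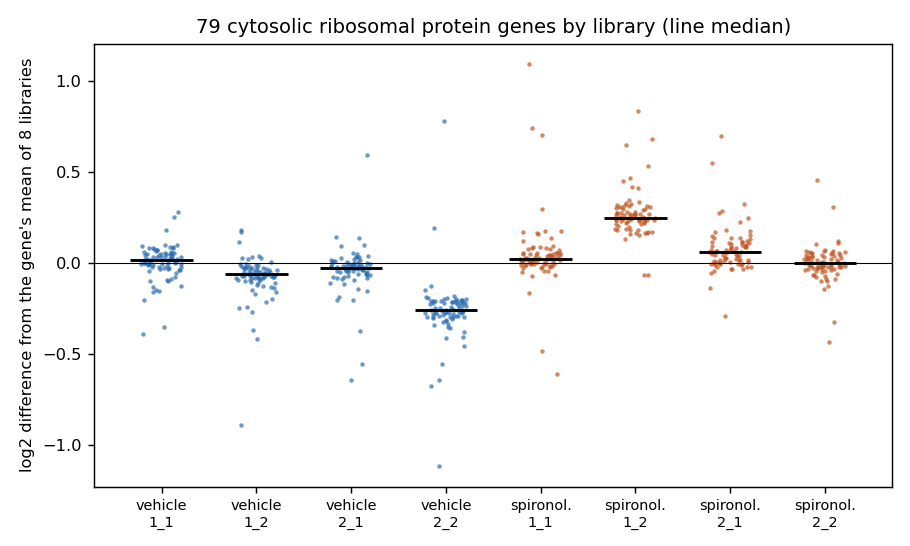
Each point is 1 of 79 ribosomal protein genes in 1 library, as the log2 difference from that gene's mean over the 8 libraries, and the line is the median of the library. The points of vehicle 2_2 lie lowest (median -0.26) and those of spironolactone 1_2 highest (median 0.25), with the other 6 medians between -0.06 and 0.06.

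Among the ribosomal genes, 3 had differences over 0.5 on the log2 scale and passed the test. Rpl17 had 2450, 2051, 2115 and 1757 normalized counts with vehicle and 5837, 4390, 2235 and 2982 with spironolactone, so that sample number 1 carried most of the difference (log2 1.17 there and 0.42 in sample number 2; fitted 0.80, adjusted p = 0.00546). Rpl7a had 2843, 2826, 2150 and 2152 with vehicle and 3527, 4366, 5114 and 3410 with spironolactone, with no overlap and more in sample number 2 (log2 0.47 and 0.96; fitted 0.71, adjusted p = 0.00252). Rpl21 had 1382, 1565, 890 and 871 with vehicle and 2326, 2479, 1404 and 1029 with spironolactone, higher within each sample number (log2 0.58, adjusted p = 0.00156). Rps29 had 2210, 2213, 2207 and 1954 with vehicle and 3118, 3477, 3100 and 2475 with spironolactone, with no overlap (log2 0.49, adjusted p = 0.000884). Rpl38 and Rps28 rose by 0.38 and 0.39 on the log2 scale, and Rpl36, Rpl36a, Rpl35 and Rpl37a by between 0.24 and 0.32. These genes have near-identical copies, and 7 pseudogenes were among the genes called higher. Of these, Rpl38-ps2, Rpl37rt and Rps10-ps1 are named after ribosomal protein genes. The others were Gm3756, Gm9794, Gm10443 and Gm6136, whose parent genes are not given in the sources used here. Rps10-ps1 rose by 0.44 on the log2 scale, while Rps10 was at -0.01. How the authors' counting divided reads between a gene and its copies is not given in the sources used here, so single values in this family are uncertain.

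The starts of 5 of the ribosomal genes that rose and of Cox7c are shown because ribosomal protein genes begin with a pyrimidine-rich stretch, and the motif CTTTC, searched on the sense strand with overlapping matches counted, is in capitals. Each window runs from 40 bases before to 20 after the RefSeq start (GRCm38.p6), at chr11:114668540-114668599 (plus) for Rpl38, chr2:26910767-26910826 (plus) for Rpl7a, chr2:39005112-39005171 (minus) for Rpl35, chr17:33824543-33824602 (minus) for Rps28, chr1:72711220-72711279 (plus) for Rpl37a and chr13:86046776-86046835 (minus) for Cox7c.
Rpl38: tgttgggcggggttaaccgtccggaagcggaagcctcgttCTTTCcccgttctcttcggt
Rpl7a: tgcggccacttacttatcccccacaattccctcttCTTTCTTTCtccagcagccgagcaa
Rpl35: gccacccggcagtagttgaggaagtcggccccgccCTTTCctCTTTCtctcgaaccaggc
Rps28: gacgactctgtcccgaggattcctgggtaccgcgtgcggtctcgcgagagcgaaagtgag
Rpl37a: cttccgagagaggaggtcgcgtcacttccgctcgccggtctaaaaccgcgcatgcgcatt
Cox7c: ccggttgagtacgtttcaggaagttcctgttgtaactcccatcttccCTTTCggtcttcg
Of the 79 ribosomal genes 58 had a window in the table, and 21 of them (36.2%) held the motif, against 8.11% of all 32851 windows. Of the 27 genes called higher 15 had a window and 5 held it.

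Nuclear-encoded subunits of the respiratory chain held 2 calls, where 0.177% of all genes tested were called higher and 0.0985% lower. Of 75 tested, 2 were called higher, Cox7c and Atp5k, a subunit of ATP synthase (295, 278, 272 and 239 normalized counts with vehicle, 360, 419, 375 and 331 with spironolactone, log2 0.45, adjusted p = 0.0225), and 0 lower. Their median log2 difference was 0.13 and 72 of 75 were above 0. Here too spironolactone 1_2 was the highest library in 60 of 75 genes and vehicle 2_2 the lowest in 69, and with both left out the median was 0.03 and 1 gene was called, a decrease that the choice of these libraries brings with it. Ndufb1, a subunit of complex I not on the list, rose by 0.50 on the log2 scale. The 12 mitochondrially encoded genes tested had 0 calls, against the same shares over all genes, and a median of -0.05. Among them mt-Nd6, the complex I subunit transcribed from the other strand, had 12380, 12063, 11719 and 11810 with vehicle and 8986, 11628, 10362 and 9510 with spironolactone, lower in all libraries (log2 -0.25, adjusted p = 0.0617 by limma). With vehicle 2_2 and spironolactone 1_2 both left out it was called, at a log2 difference of -0.34.

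Gene length went with the difference across all genes. The median log2 difference fell from 0.09 in the tenth of genes with the shortest lengths (57 to 1339 bases) to -0.04 in the tenth with the longest (9650 bases and over), and the Spearman correlation between length and difference across the 15226 genes was -0.241, with -0.200 in sample number 1 and -0.191 in sample number 2. Between the plates of 1 group and sample number, which had the same treatment, the same correlation was -0.0668, -0.215, 0.224 and -0.134. These are descriptions across genes of shared libraries. The slope of log2 value on log2 length, per doubling of length, averaged 0.0131 ± 0.0148 with vehicle and -0.0131 ± 0.0167 with spironolactone (SD, n = 4, two-sided exact permutation p = 0.0571 across sample numbers and 0.111 within them). With length taken out of every library by a smooth curve and the block kept, limma called 5 genes higher (0.0328%) and 1 lower (0.00657%). Cox7c, Mt1, Atp5k and Igfbp5 were among the 6, with adjusted p of 0.0306, 0.0461, 0.0461 and 0.0461. The others were Gm6180 and Gm2614, not called without the correction and named after their values were seen. The ribosomal protein genes then had 0 calls and a median of 0.13.

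**Figure D5:**
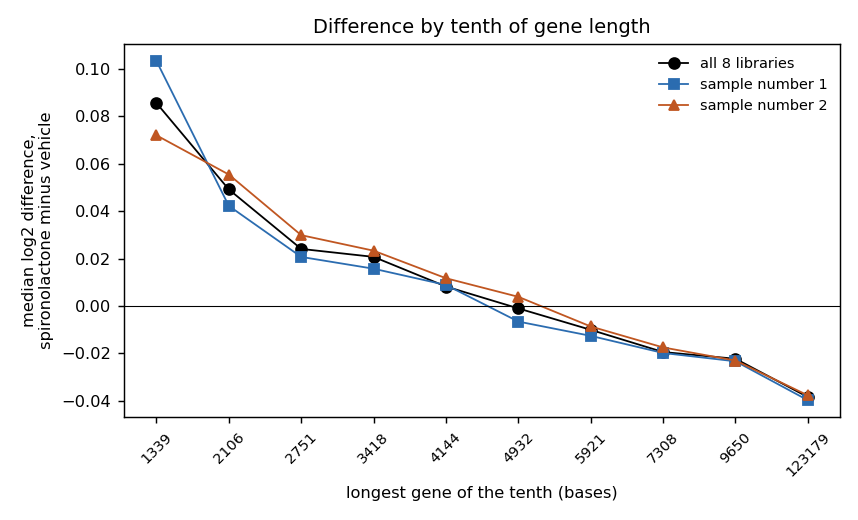
Median log2 difference, spironolactone minus vehicle, in 10 groups of genes ordered by length, with the longest gene of each group on the horizontal axis. Both sample numbers run from above 0 for the shortest genes (0.10 and 0.07) to -0.04 for the longest.

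Lists of other responses to drugs or steroids held 1 called gene, against 0.177% called higher and 0.0985% lower over all genes. Of 20 target genes of NRF2, the factor of the oxidative stress response, 1 rose, Fth1, the heavy chain of ferritin, with 18232, 17952, 16479 and 15634 normalized counts with vehicle and 19405, 21639, 17979 and 18649 with spironolactone (log2 0.18, adjusted p = 0.0416). Its groups overlapped across sample numbers. Of 27 genes of the stress responses 0 were called (median 0.08), with the smallest p in Hspb1 and Trib3 at log2 differences of 0.13 and 0.26. Of 16 genes of drug metabolism and efflux 0 were called (median 0.03). The widest interval of that list belonged to Ugt1a6a, a glucuronosyltransferase at 9.04 ± 4.59 normalized counts with vehicle and 14.2 ± 5.24 with spironolactone (SD, n = 4), from -0.24 to 1.55 about a log2 difference of 0.66. Of 33 genes of sterol synthesis and uptake 0 were called (median -0.01), with Srebf1 at 0.08 and Sqle at -0.08.

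The lists of the cell cycle, the matrix, cytokines, the clock, immediate early genes and cell type markers held 1 called gene, Lum, against 0.177% called higher and 0.0985% lower over all genes. Of 54 genes of the G2/M phase 0 were called (median 0.04, 44 above 0), with Cdca3 and Ube2c higher in all spironolactone libraries at log2 differences of 0.20 and 0.17 (adjusted p = 0.195 and 0.23). Of 41 S-phase genes 0 were called (median 0.04), with the smallest p in Mcm5 and Fen1 at 0.18 and 0.62. Of 49 genes of the matrix and of myofibroblasts Lum fell and the rest were not called (median -0.02). Of 22 chemokines and cytokines 0 were called (median -0.05), Cxcl12 and Cxcl5 having log2 differences of -0.12 and -0.21. With vehicle 2_2 and spironolactone 1_2 both left out Cxcl5 was called, at -0.38. Of 18 clock genes 0 were called (median 0.01), with Per1 and Ciart at 0.19 and 0.30, and of 23 immediate early genes 0 were called (median 0.02), with Ier2 and Fosl1 at 0.24 and 0.55. Of the 29 cell type markers tested 1 was called, Lum, and the median was -0.05. The 4 Y-linked genes tested had 0 calls, and Ddx3y and Kdm5d differed by -0.09 and -0.07.

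The remaining genes called higher, named after their values were seen, were S100a6, Mgp and Cped1. S100a6, a small calcium-binding protein, had 14344, 14032, 13685 and 11156 normalized counts with vehicle and 16013, 18515, 15658 and 14824 with spironolactone (log2 0.29, adjusted p = 0.0192). Mgp, an inhibitor of matrix calcification, rose by 0.28 on the log2 scale, and Cped1, with a length of 8279 bases the longest of the genes called higher, by 0.25.

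The effect of spironolactone differed between the sample numbers in 3 genes, by a test of the difference itself (limma interaction, adjusted p at most 0.05 over 15226 genes). Gm10123, a pseudogene, had 1553, 2343, 4496 and 5792 normalized counts with vehicle and 1481, 1819, 1725 and 1641 with spironolactone, so that only the vehicle libraries of sample number 2 stood apart. Rn18s-rs5, a ribosomal RNA sequence, had 71888, 69370, 112945 and 152734 with vehicle and 85389, 91984, 77796 and 86661 with spironolactone. Lars2, a mitochondrial leucyl-tRNA synthetase, had 4981, 4646, 6370 and 7599 with vehicle and 5973, 6013, 5077 and 4503 with spironolactone. In all 3 genes the vehicle libraries of sample number 2 were the highest of the 8. Without spironolactone 2_2 the test called 0 genes, without spironolactone 2_1 it called Lars2 alone, and without spironolactone 1_2 it called 9.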

How the data were processed

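RNA of 12 plates of mouse fibroblasts was sequenced after poly(A) enrichment, and the 8 spironolactone and vehicle libraries were tested. The authors counted reads on genes (HISAT2 2.0.5 and featureCounts 1.5.0-p3 by the submitters' processing notes, which name mm39, while the methods name mm9) and deposited signal values per gene, that is, counts scaled by each library's size factor. Strand use in counting is not given in the sources used here. Columns with the results of the authors' own tests (fold changes on the log2 scale, p-values) are in the same deposited tables and were not used. The smallest step of a column gave the reads behind its values, with 100% of values whole within 0.01; for 1 library they came from its other table.

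Values were tested on the log2(value + 1) scale, which understates differences of low genes, by limma 3.58.1 with a trend (R 4.3.3), for genes with a mean of at least 10, with the sample number as a block. Pairing was checked by the correlation of deviations, over 0.1 in each of 8 same-number pairs. Alternatives used edgeR 4.0.16 and DESeq2 1.42.0 on recovered reads, other blocks, filters, a pseudocount of 0.5, TMM factors, a gene length correction (lowess span 0.3), plate means and leaving out libraries. The fits were tested on simulated data. Intervals are at 95% and cover the spread of plates only.

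Genes named were those of the steroid and metallothionein lists, the 10 largest increases and decreases among called genes, the 10 smallest p, up to 4 called genes (else the 2 smallest p) of each other list, and Nr3c2, Nr3c1, Pgr and Ercc3. A few genes that this rule names are not reported here. The members and lists were chosen with earlier results of these data known. Sequences around gene starts are from RefSeq (GRCm38.p6).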

Additional observations from a re-analysis of the deposited data

Results flagged for a closer look

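In 3 genes the effect of spironolactone differed between the sample numbers by a test of the interaction itself (limma, adjusted p over 15226 genes). As the log2 difference in sample number 2 minus that in sample number 1, the interaction was -1.38 for Gm10123 (adjusted p = 0.00849), -1.01 for Rn18s-rs5 (adjusted p = 0.00714) and -0.86 for Lars2 (adjusted p = 0.00327).

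Some single libraries lay far from the other 3 of their group, by the gap to the nearest library over the range of the group. Of 198 groups of 4 examined, 9 passed Dixon's 95% critical value, where chance gives about 1 in 20. The share that passed was no higher than that, and the libraries that follow are listed only because the rule flagged them. Spironolactone 1_2 had the most reads on genes, 30174714. In the spironolactone group Cebpd was lowest in 1_1 at 1044 normalized counts, Gsn was lowest in 1_1 at 24511, Pdk4 was lowest in 2_1 at 252 and Rpl38-ps2 was highest in 1_2 at 637. In the vehicle group Rps29 was lowest in 2_2 at 1954, Srebf1 was highest in 2_2 at 3298, Cxcl12 was highest in 2_1 at 5182 and Kdm5d was highest in 2_2 at 980 normalized counts.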

How the results depend on the processing

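The counts of calls, 27 genes higher and 15 lower, moved by over 1.5 times under many settings, while the direction of the 41 called genes followed was the same in each setting in which named genes were refitted. With no replicate block, and with the biological replicate number as the replicate block, the counts were 0 and 0. DESeq2 gave 60 and 41 with the block and 12 and 1 without it. With no filter on low values 63 and 34 were called, and 2 genes (Spata25 and Gm14794, named after their values were seen) passed both thresholds of the study. The gene length correction with the block gave 5 and 1, with 1 past both thresholds (Gm6180). Treating plates as correlated within a sample number and treatment, at an estimated correlation of -0.483, gave 767 and 633 with 29 past both thresholds. Plate means gave 487 and 321 with 12. With these settings the steroid receptor responsive genes called higher were 8 and 7 of 26. A negative correlation lowers the standard errors. Plate means left few values per gene to estimate them, and the smallest adjusted p was 1.32e-132 by limma. The counts of these settings are therefore not read as more genes changed. Sample number 1 alone gave 6 and 4 with 2 past both thresholds (Rpl17 and Gm44126), and sample number 2 alone 5 and 4 with 1 (Gm10123). With vehicle 2_2 and spironolactone 1_2 both left out, added after the data were seen, 1 gene passed both thresholds (Srp54b). Leaving out 1 library gave between 10 and 144 higher, between 2 and 48 lower and between 0 and 3 past both thresholds; the highest counts came without spironolactone 1_1. Of these 41 genes between 12 (without spironolactone 2_1) and 41 (without spironolactone 1_1) were still called. The genes whose effect differed between sample numbers were 3, between 0 and 9 with 1 library left out, and 0 with no filter on low values. The number of intervals within 1 log2 unit stayed within 1.5 times of 14251 in every setting that gave intervals, and so did the 27 steroid genes higher with aldosterone than with spironolactone. The cause of these changes was not tested. Of the genes with means between 10 and 100, 76.2% had intervals within 1 log2 unit, and how much of their width comes from counting error was not tested.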
